A study of Mus musculus with 6 samples.

Results

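The erythroid genes measured here were Alas2, Tent5c, Slc4a1 and the alpha and beta globins, read in mouse brain samples on microarrays. The members are all 21 of 45101 probe sets whose platform symbol is Alas2, Tent5c (older name Fam46c) or Slc4a1 or starts with Hba- or Hbb-, and they name 12 of 19324 genes. A probe set is a group of short probes on the array that report 1 signal. Alas2 and Tent5c were chosen because they were high on the array of the Apoer2-Vldlr double KO. Their values there, and the double KO against WT difference as a whole, are therefore given as a description with no test. The globins and Slc4a1 were added by name, to see whether they followed.

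Each of 6 arrays measured total RNA of 1 frontal cortical lobe from an untreated mouse aged 21 days, on a background mixing C57BL/6 and 129 and labelled male. There was 1 array per genotype. The Apoer2-Vldlr double KO, the Apoer2 KO (gene symbol Lrp8), the Vldlr KO and the WT littermate came from 1 cross of double heterozygotes, and the Reln KO and Dab1 KO came from matings of their own. Reelin, the product of Reln, is a secreted protein that places neurons, Apoer2 and Vldlr are its receptors, and Dab1 carries its signal inside the cell. The double KO, Reln KO and Dab1 KO are the 3 reeler models of the series title, and the Apoer2 KO, Vldlr KO and WT arrays stand as comparison arrays. The labels give neither the alleles nor any perfusion of the animals.

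Red blood cells carry oxygen on haemoglobin, a tetramer of alpha and beta globin chains, each holding haem. Mature mouse red cells have no nucleus, but the youngest of them, reticulocytes, still hold RNA, most of it globin RNA. Brain tissue that is not flushed keeps blood in its vessels, and that blood adds its RNA to a tissue extract. Alas2 is the erythroid form of the first enzyme of haem synthesis and is X-linked. Tent5c is a poly(A) polymerase that is high in late erythroid cells and also active in B lineage cells, and Slc4a1 is band 3, the anion exchanger of the red cell membrane.

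Several array readings went against the labels. Xist, the RNA of the inactive X chromosome of females, read 3368 to 4006 on 5 arrays labelled male and 124.9 on the Apoer2 KO array, and the Y-linked Eif2s3y read 367.5 on the Apoer2 KO array and at most 7.7 on the others. The Apoer2 KO array also carried a growth hormone (Gh) signal of 3705, against 13.1 to 32.4 elsewhere. Reln read 79.9 on the Reln KO array against 1498 to 1880 elsewhere, Lrp8 13.7 on the double KO and 4.2 on the Apoer2 KO array against 342.4 to 379.8, and Vldlr 185.6 on the double KO and 187.3 on the Vldlr KO array against 357.6 to 551.6. Dab1 was 478.5 on the Dab1 KO array against 516.4 to 626.0, and whether its probes lie in the deleted part was not tested. Markers of cerebral cortex neurons gave signal on all arrays (8 of 8 measured genes above background), and 9 or 10 of 10 markers of cerebellar granule cells did so too. Background is taken as the highest of 27 bacterial control probe sets, which was 28.4 to 39.6 across arrays, while the median signal of an array was 86.5 to 92.3.

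The stretches of 250 bases before the start sites of Alas2, an alpha globin gene, a beta globin gene and Tent5c are shown because the results turn on whether these genes moved together across arrays. They come from RefSeq on GRCm38.p6 and run 5′ to 3′ on the gene's strand. Capitals mark every match, on either strand, to AGATAA or TGATAA (forms of the motif read by GATA factors), CACCC (the motif of erythroid Krüppel-like factors), CCAAT or TATAA. The regions are chrX:150547167-150547416 on the plus strand for Alas2, chr11:32283422-32283671 on the plus strand for Hba-a1, chr7:103827929-103828178 on the minus strand for Hbb-bs and chr3:100489193-100489442 on the minus strand for Tent5c.
Alas2: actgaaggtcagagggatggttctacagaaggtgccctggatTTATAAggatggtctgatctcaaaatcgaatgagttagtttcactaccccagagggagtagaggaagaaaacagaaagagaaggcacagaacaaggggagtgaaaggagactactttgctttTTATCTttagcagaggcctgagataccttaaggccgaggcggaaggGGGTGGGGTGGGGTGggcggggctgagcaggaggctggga
Hba-a1: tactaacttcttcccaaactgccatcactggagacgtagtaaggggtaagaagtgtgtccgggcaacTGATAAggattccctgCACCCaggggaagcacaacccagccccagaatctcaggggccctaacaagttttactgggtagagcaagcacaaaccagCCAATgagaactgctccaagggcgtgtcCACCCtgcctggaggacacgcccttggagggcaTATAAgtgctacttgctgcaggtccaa
Hbb-bs: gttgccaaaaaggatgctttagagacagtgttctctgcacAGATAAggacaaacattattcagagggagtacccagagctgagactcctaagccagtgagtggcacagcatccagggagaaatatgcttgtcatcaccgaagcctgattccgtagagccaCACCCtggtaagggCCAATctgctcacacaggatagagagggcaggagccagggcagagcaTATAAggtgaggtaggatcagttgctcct
Tent5c: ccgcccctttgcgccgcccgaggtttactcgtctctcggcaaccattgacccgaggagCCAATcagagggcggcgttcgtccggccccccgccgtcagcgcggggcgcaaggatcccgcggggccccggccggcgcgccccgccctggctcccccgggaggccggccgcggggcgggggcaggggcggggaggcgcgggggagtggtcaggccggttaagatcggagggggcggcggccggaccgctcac
The Alas2 window held 1 AGATAA match, 3 CACCC matches and 2 TATAA matches that overlap each other. The Hba-a1 window held 1 TGATAA, 2 CACCC, 1 CCAAT and 1 TATAA match, and the Hbb-bs window held 1 AGATAA, 1 CACCC, 1 CCAAT and 1 TATAA match. The Tent5c window held 1 CCAAT match and no match to the other 4 motifs, and 78.8% of its bases were G or C, against a median of 52.4% over all windows. Over 32851 such windows of mouse genes, 16.6% held AGATAA or TGATAA, 52.0% CACCC, 33.8% CCAAT and 22.8% TATAA, so each of these matches is common. The windows of Hba-a1 and Hba-a2 share an identical run of 297 bases when the first 50 transcribed bases are included, and the Hbb-bs and Hbb-bt windows were 68.4% identical. A match is a description of the letters only.

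Alas2 (probe set 1451675_a_at) stood out on the double KO array, as its choice requires. Its signal was 848.1 on the double KO, 125.3 on the Reln KO, 205.9 on the Dab1 KO, 247.9 on the Apoer2 KO, 406.1 on the Vldlr KO and 157.3 on the WT array. The double KO array was 2.09 times the next one, the Vldlr KO array, and 5.39 times the WT array. On the log2(signal + 28.1) scale, which understates the change of dim genes, the double KO minus WT difference was 2.24. In bulk samples such as these, fewer cells of a type and less RNA per cell cannot be told apart. All 5 mutant arrays share the single WT array as their control.

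Tent5c (1448021_at) had the same order of arrays as Alas2, with the double KO highest, then Vldlr KO, Apoer2 KO, Dab1 KO, WT and Reln KO. Its signal was 376.4 on the double KO, 24.2 on the Reln KO, 77.8 on the Dab1 KO, 112.2 on the Apoer2 KO, 141.8 on the Vldlr KO and 50.8 on the WT array. The log2 difference of double KO minus WT was 2.36, and the double KO array was 2.65 times the next one. The Reln KO array read below background there. The pseudocount matters for so dim a gene: with 89.4 in place of 28.1 the difference was 1.73, and with 1 it was 2.87. The second Tent5c probe set, 1429682_at, read 12 on the double KO array and 3.4 to 4.2 on the others, all below background.

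Slc4a1 was dim, and none of its 3 probe sets reached the filter on low values, a mean signal of at least 89.0 over the 6 arrays. The brightest, 1416464_at, read 127.1 on the double KO, 33.8 on the Reln KO, 59.9 on the Dab1 KO, 30.1 on the Apoer2 KO, 72.9 on the Vldlr KO and 29.8 on the WT array. The next, 1434502_x_at, read 97.9 on the double KO, 38.7 on the Reln KO, 17.6 on the Dab1 KO, 37.9 on the Apoer2 KO, 50.9 on the Vldlr KO and 23.8 on the WT array. In both the double KO array was highest and the Vldlr KO array second, as for Alas2 and Tent5c. That pair of places was held by 2.24% of all 22517 probe sets past the filter. The log2 differences of double KO minus WT were 1.42 and 1.28, with the WT signal below background in each, and the first ran from 0.86 to 2.06 over the other settings. The third probe set, 1431743_a_at, read 1.3 to 3.8 and carries no level.

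**Figure D1:**
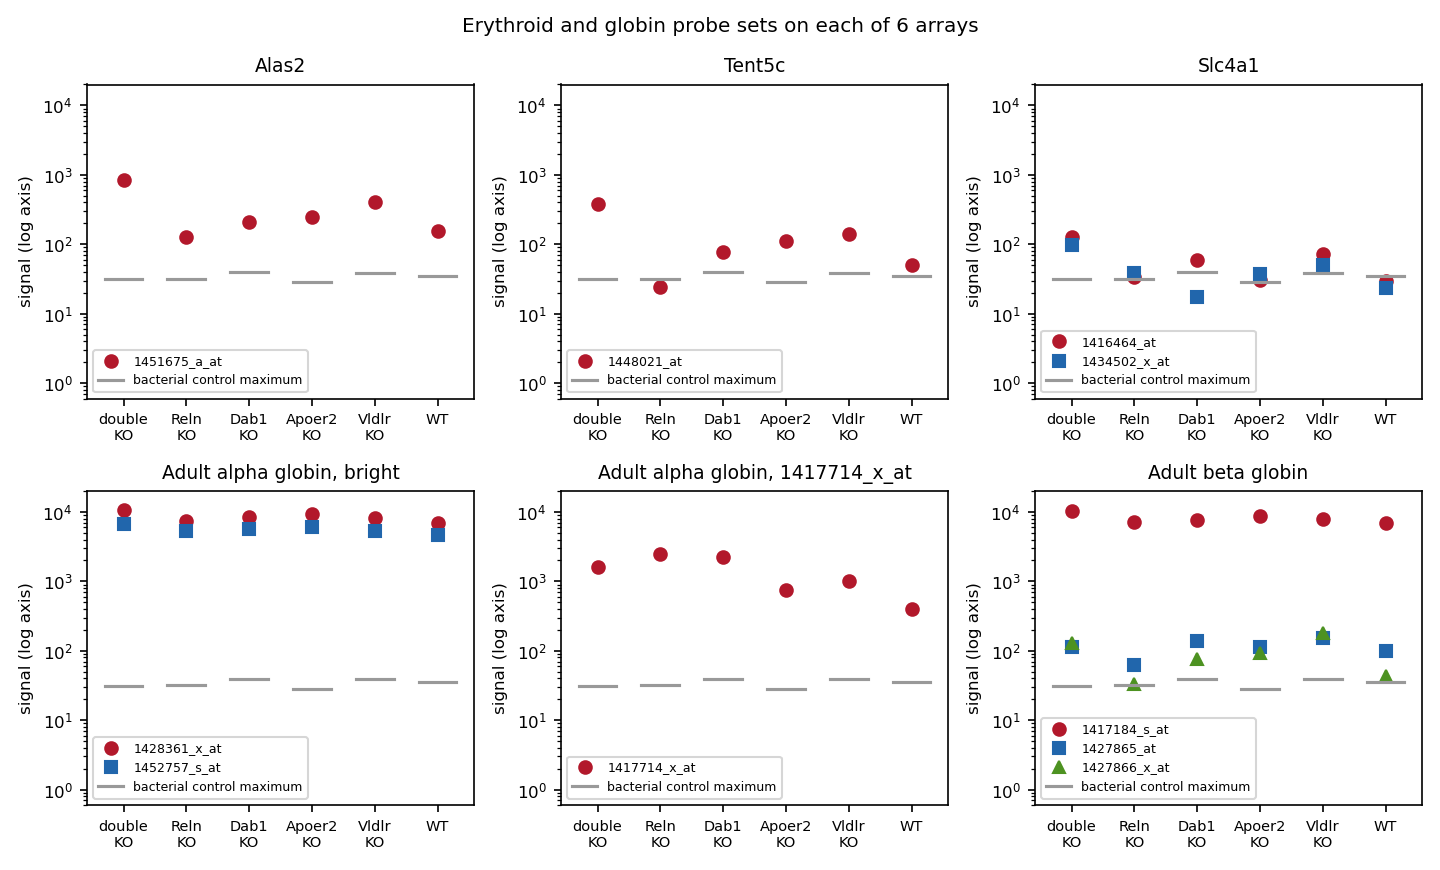
Signal (log axis, arbitrary intensity units) of the main erythroid and globin probe sets on each of the 6 arrays, 1 point per probe set and array, with no error bars because each genotype had 1 array. Grey bars mark the highest bacterial control of the array. Alas2 and Tent5c peak on the double KO array, at 848.1 and 376.4, while the bright globin probe sets lie within 4703 to 10814 on every array.

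Of the 8 adult globin probe sets, 3 were among the brightest signals on every array. These 3 were also highest on the double KO array, at 1.42 to 1.54 times WT, while the dimmer ones differed among themselves. The brightest alpha globin probe set, 1428361_x_at, matches both Hba-a1 and Hba-a2. It read 10814.3 on the double KO, 7514.5 on the Reln KO, 8350.2 on the Dab1 KO, 9177.3 on the Apoer2 KO, 8279.5 on the Vldlr KO and 7008.3 on the WT array. The double KO array was 1.54 times the WT array (log2 difference 0.62) and the Reln KO array was closest to WT (0.10). The Dab1 KO, Apoer2 KO and Vldlr KO arrays lay between, at 0.25, 0.39 and 0.24 above WT. The double KO array read 1.18 times the next array, the Apoer2 KO, where for Alas2 the next was the Vldlr KO.

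The second bright alpha globin probe set, 1452757_s_at, repeated this pattern. It read 6682.6 on the double KO, 5266.4 on the Reln KO, 5618.4 on the Dab1 KO, 5975.3 on the Apoer2 KO, 5336.9 on the Vldlr KO and 4703.1 on the WT array, in the same order of arrays, with a log2 difference of double KO minus WT of 0.50. The beta globin probe set 1417184_s_at matches Hbb-bt, Hbb-bs, Hbb-b1 and Hbb-b2. It read 10198.5 on the double KO, 7208.8 on the Reln KO, 7636.9 on the Dab1 KO, 8636.2 on the Apoer2 KO, 7910.1 on the Vldlr KO and 6916.4 on the WT array, 1.47 times WT on the double KO array (log2 0.56). All 3 bright probe sets were highest on the double KO and lowest on the WT array, as 15.0% and 17.9% of all probe sets past the filter were. The double KO minus WT differences of 0.62, 0.50 and 0.56 compare with 0.33, 0.25 and 0.31, the probe sets' own residual SDs in the class comparison scaled to a difference of 2 arrays. Those SDs come from the same arrays, the double KO and WT among them, and mix genotypes within a class. They are therefore no independent measure of noise. The double KO minus WT differences fell to 0.28 to 0.45 under quantile normalization.

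The bright globins lay at the top of each array's range. The 1428361_x_at signal ranked 1 of all 45101 probe sets on the double KO, 29 on the Reln KO, 16 on the Dab1 KO, 5 on the Apoer2 KO, 7 on the Vldlr KO and 39 on the WT array. The highest signal of any probe set was 9216 to 10814 across arrays. Whether signals there respond less than in proportion to the RNA was not tested.

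A dimmer alpha globin probe set, 1417714_x_at, matches the same Hba-a1 and Hba-a2 genes and gave another order. It read 1607.4 on the double KO, 2474.2 on the Reln KO, 2208.5 on the Dab1 KO, 758.7 on the Apoer2 KO, 1007 on the Vldlr KO and 399.4 on the WT array. Here the Reln KO array was highest, 6.19 times the WT array, although it lay nearest to WT at the bright alpha globin probe sets. Within the 4 arrays of the receptor cross the order was double KO, Vldlr KO, Apoer2 KO and WT, which is the order of Alas2 and Tent5c, and the Reln KO and Dab1 KO arrays lay above all 4. The probe sets of these genes thus disagree, and no single alpha globin level can be given for an array.

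The other adult globin probe sets were dim. The Hbb-b2 probe set 1427866_x_at read 127.4 on the double KO, 33.4 on the Reln KO, 76.2 on the Dab1 KO, 92.8 on the Apoer2 KO, 181.4 on the Vldlr KO and 42.8 on the WT array. It shares with Alas2 that the double KO and Vldlr KO arrays were the highest pair and the Reln KO array the lowest, but the Vldlr KO array came first. The other Hbb-b2 probe set, 1427865_at, read 114.5 on the double KO, 61.5 on the Reln KO, 136.9 on the Dab1 KO, 114.3 on the Apoer2 KO, 150.9 on the Vldlr KO and 99.1 on the WT array, with the double KO in the middle. The Hba-a2 probe set 1427219_at and the Hba-a1 probe set 1453574_at stayed at 27.9 to 40.8 and 9.9 to 35.2.

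The embryonic globins, which serve the red cells of the yolk sac, gave little or no signal. Of their 7 probe sets none passed the filter, and 6 read below background on every array. The zeta chain gene Hba-x (1448716_at) read 52.4 on the double KO, 64.1 on the Reln KO, 45 on the Dab1 KO, 34.2 on the Apoer2 KO, 22.8 on the Vldlr KO and 41.3 on the WT array. The double KO array lay between the Reln KO and Dab1 KO arrays there. The Hbb-y and Hbb-bh1 probe sets read 0.5 to 16.

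Over all 21 member probe sets, 13 were highest on the double KO array, where 16.2% of all probe sets without a filter were. The 13 comprise 1 of 1 for Alas2, 2 of 2 for Tent5c, 3 of 3 for Slc4a1, 3 of 5 for adult alpha globin, 1 of 3 for adult beta globin and 3 of 7 for embryonic globin. Nothing is read from this count, since 2 genes were chosen on that array and 8 of the 21 probe sets read below background on all arrays. A mean signal of at least 89.0 was reached by 8 members. The Tent5c probe set 1448021_at and the Hbb-b2 probe set 1427866_x_at reached it only through their highest array, with means of 81.4 and 74.5 over the other 5.

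Among these 8, those at least 2-fold higher on the double KO array than on the WT array were Alas2, Tent5c, 1417714_x_at and 1427866_x_at, where 0.382% of 22517 probe sets were. Nothing is read from that count, because Alas2 and Tent5c were chosen on this array and Tent5c reached the filter only through it. Against the same WT array, 1 was at least 2-fold higher on the Reln KO array (1.10% of all) and 1 on the Dab1 KO array (0.382%), each time 1417714_x_at. On the Apoer2 KO array 0 passed that fold (0.244%), and on the Vldlr KO array 4 did (0.333%). One of those 4, 1427866_x_at, reached the filter only through the Vldlr KO array, so that count is no support either. The Vldlr KO minus WT differences of those 4 were 1.23 for Alas2, 1.11 for Tent5c, 1.28 for 1417714_x_at and 1.56 for 1427866_x_at. None of the 8 was at least 2-fold lower than WT on any mutant array. With 1 array a genotype and 1 shared WT array, these counts have no replicate check.

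**Figure D2:**
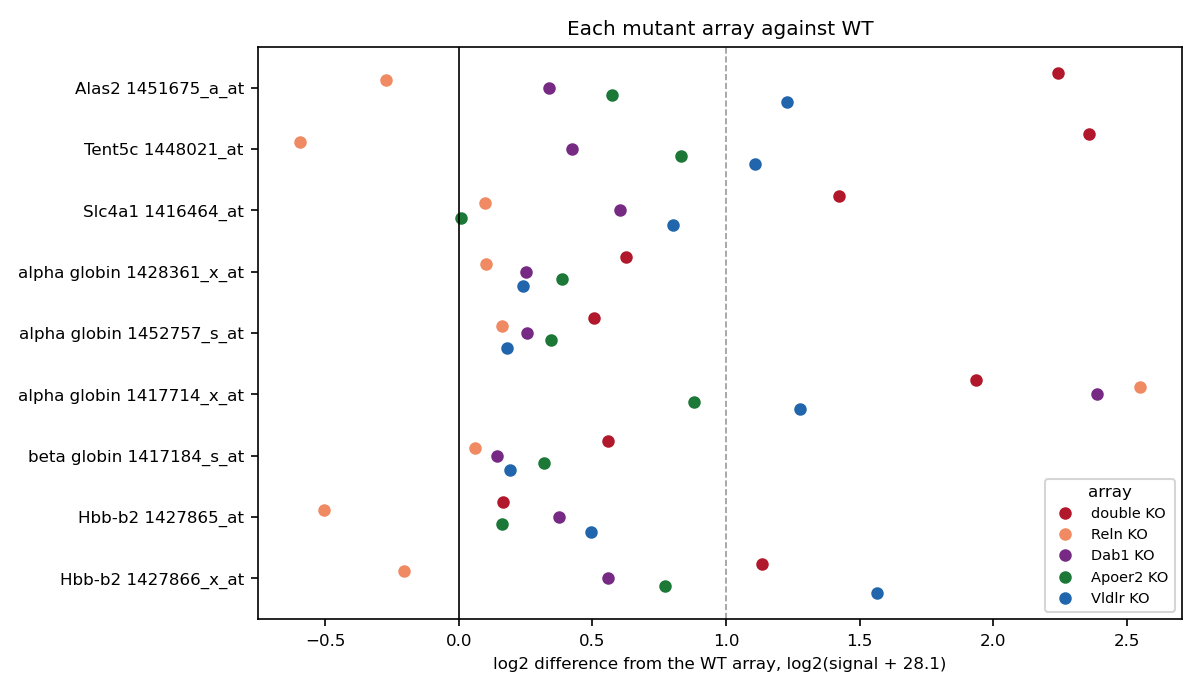
Log2 difference from the WT array, on the log2(signal + 28.1) scale, of the 8 member probe sets past the filter and of Slc4a1 1416464_at, 1 point per mutant array, with no error bars because each genotype had 1 array. The dashed line marks 2-fold. On the double KO array the points run from 0.16 for 1427865_at to 2.36 for Tent5c, and the bright globin probe sets lie at 0.50 to 0.62.

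The arrays of the receptor cross show the double KO beside both single receptor KOs. The log2 difference of the double KO from WT exceeded the sum of those of the Apoer2 KO and the Vldlr KO by 0.44 for Alas2 and by 0.42 for Tent5c. On the linear scale the single KO signals together, less the WT signal, gave 496.7 for Alas2 and 203.2 for Tent5c, against measured double KO signals of 848.1 and 376.4. For the bright globins the log2 excess was -0.0035 at 1428361_x_at and 0.046 at 1417184_s_at, so the double KO signal was close to the sum of the single KO differences there. At the other members past the filter the excess was -0.021 at 1452757_s_at, -0.22 at 1417714_x_at, -0.49 at 1427865_at and -1.20 at 1427866_x_at. For Slc4a1, below the filter, it was 0.61 at 1416464_at and 0.33 at 1434502_x_at. Alas2 and Tent5c were chosen for a high double KO signal, which favours an excess, so nothing is read from theirs. None of these values has an error, because each of the 4 genotypes had 1 array.

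The replicated comparison set the 3 reeler models against the 3 comparison arrays with limma, and it called none of the members. Over all 22517 probe sets past the filter 27 had an adjusted p under 0.05 (0.120%), of which 2 were higher and 25 lower in the reeler models. At an unadjusted p under 0.05 there were 2485 (11.0%), and 1 of the 8 members was among them. Arrays of different genotype stand as replicates here, so the p-values measure the spread between these 6 arrays.

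Alas2 differed by 0.17 (SE 0.58), with log2 means of 8.30 in the reeler models and 8.14 in the comparison arrays. Its classes overlapped, since the highest and the lowest array were both reeler models, the double KO and the Reln KO. Tent5c differed by 0.08 (SE 0.64) with the same overlap. Both genes were chosen for their signal on the double KO array, a reeler model, so these differences are descriptions with no p. Tent5c also reached the filter only through that array. Without the double KO array the differences were -0.57 for Alas2 and -0.73 for Tent5c, and without the WT array they were -0.13 and -0.24. The bright globins differed by 0.12 at 1428361_x_at (SE 0.14, limma adjusted p = 0.778), by 0.13 at 1452757_s_at (SE 0.11, limma adjusted p = 0.673) and by 0.08 at 1417184_s_at (SE 0.13, limma adjusted p = 0.842). The Hbb-b2 probe sets differed by -0.21 at 1427865_at and by -0.28 at 1427866_x_at, with limma adjusted p-values of 0.770 and 0.832.

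The exception was 1417714_x_at, the one member whose classes did not overlap, as 17.8% of all probe sets did not. Its log2 means were 11.03 in the reeler models and 9.46 in the comparison arrays, a difference of 1.57 (SE 0.29, unadjusted p = 0.000541, limma adjusted p = 0.147). The difference missed the threshold after adjustment. Over the other settings it was 1.21 to 1.85, with adjusted p-values of 0.0851 to 0.832. The highest p came with the cross as a covariate, where the double KO alone is set against the other arrays of its cross and the difference was 1.22. The Reln KO and Dab1 KO arrays, the highest of the 6, came from other matings, and for those arrays genotype and mating cannot be told apart. Without the Apoer2 KO array, the one with Gh and Y-linked signal, the difference was 1.65.

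Whether the globins followed Alas2, Tent5c and Slc4a1 was described by correlations over the 6 arrays. The globin level was the mean log2 signal of the 6 adult globin probe sets past the filter. It was 10.76 on the double KO, 10.30 on the Reln KO, 10.60 on the Dab1 KO, 10.42 on the Apoer2 KO, 10.60 on the Vldlr KO and 9.94 on the WT array. Pearson's r was 0.751 with Alas2 and 0.729 with Tent5c, and Spearman's rho was 0.771 with each. These are descriptions with no p, since both genes were chosen for their double KO signal. Slc4a1, which was added by name, gave a Pearson's r of 0.821 (exact permutation p = 0.0417) and a rho of 0.886 (exact p = 0.0333). The tests were two-sided, and after Benjamini-Hochberg adjustment over the 3 genes computed neither passed 0.05 (exact adjusted p = 0.104 for r and 0.1 for rho). Slc4a1 did not reach the filter and read 33.8 on the Reln KO, 30.1 on the Apoer2 KO and 29.8 on the WT array, near background. The globin level also includes 1427866_x_at, which reached the filter only through the Vldlr KO array, the second highest for Slc4a1. Without that probe set r was 0.729 and rho 0.943. No support is drawn from these p-values.

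The values moved with the globin probe sets, the statistic and the pseudocount. With the brightest alpha globin probe set alone, r was 0.864 with Alas2, 0.897 with Tent5c and 0.739 with Slc4a1, and rho was 0.771, 0.771 and 0.6. With the brightest beta globin probe set alone, r was 0.893, 0.919 and 0.734 for these genes, and rho was 0.886, 0.886 and 0.657. Without 1427866_x_at, the globin probe set that reached the filter only through its highest array, r was 0.575, 0.548 and 0.729, a setting chosen after the values were seen. For Slc4a1 the exact adjusted p of r was 0.0764 to 0.221 over these settings and a pseudocount of 1, while that of rho ran from 0.0333 with a pseudocount of 1 to 0.242 with alpha globin alone. Leaving out the double KO and WT arrays, the farthest from the median globin level, r was 0.730, 0.724 and 0.887 over the other 4 arrays. For Slc4a1 the exact p was then 0.25, and the smallest that 4 arrays allow is 0.0417. With the brightest alpha globin probe set alone and those arrays left out, r was 0.537, 0.768 and -0.094, also a setting chosen after the values were seen. In that setting the relation with Slc4a1 rested on the double KO and WT arrays.

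**Figure D3:**
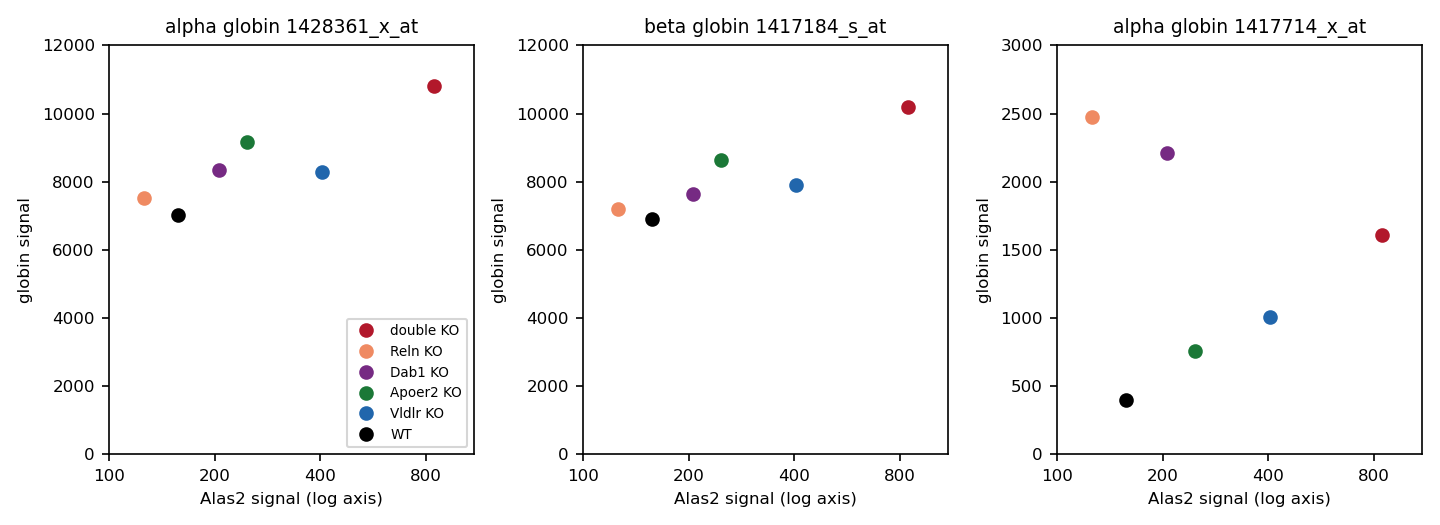
Each point is 1 of the 6 arrays, with the Alas2 signal on the x axis (log axis) and on the y axis (linear, from 0) the signal of alpha globin 1428361_x_at (left), beta globin 1417184_s_at (middle) or alpha globin 1417714_x_at (right). On the left and in the middle the double KO array is highest on both axes. On the right the Reln KO and Dab1 KO arrays lie above the 4 arrays of the receptor cross, among which both signals have the same order.

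Likeness of pattern to Alas2 was sought only among probe sets that name 1 gene. The bright globin probe sets and 1417714_x_at name several genes, and Slc4a1 was below the filter, so none of these could be listed. The genes whose pattern over the 6 arrays was most like that of Alas2 were sought among 11575 such genes past the filter. They were Krtap5-1, a keratin associated protein gene (Pearson's r 0.990), Trp53rka (0.988), the guanylate kinase gene Guk1 (0.988), Noc4l (0.983) and Tent5c, at place 5 with r = 0.983. Tent5c spanned a 15.6-fold range of signal between its highest and lowest array, and Alas2 a 6.77-fold range. The others moved less, with a log2 difference of double KO minus WT of 0.85 for Krtap5-1, 0.63 for Trp53rka, 0.18 for Guk1 and 0.32 for Noc4l. Among the same genes, those most like the alpha globin probe set 1428361_x_at were Gm38402 (0.988), Jpx (0.982), Dnm2 (0.980), Slc22a17 (0.980) and Lrrcc1 (0.978). Beta globin 1417184_s_at was not among the probe sets searched. Tent5c ranked 111 in that list, with r = 0.897. With 6 arrays and this many genes, high values of r arise for many genes, and these are a description. Alas2 and Tent5c were both chosen for a high double KO signal, which favours a high r between them. Tent5c also reached the filter only through that array, so nothing is read from its place.

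Most genes of the same pathways lay near their WT signal on the double KO array, unlike Alas2 and Tent5c. Among all 11497 genes past the filter, with 1 probe set each, 6030 were above WT on the double KO array and the median difference was 0.02. At least 2-fold higher there were 39 (0.339%). Of 12 haem synthesis genes measured, 1 was at least 2-fold higher, namely Alas2, and the list median was 0.06. Next were Alad, the second enzyme of the pathway, at 0.41, and the mitochondrial iron importer Slc25a37 at 0.23, while Ppox, Abcb10 and Uros were lowest at -0.62, -0.27 and -0.26. Alas1, the housekeeping form of the enzyme, read 589.5 on the double KO, 589.1 on the Reln KO, 640.2 on the Dab1 KO, 609 on the Apoer2 KO, 611 on the Vldlr KO and 518.1 on the WT array, an order unlike that of Alas2.

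Of 16 measured genes of the red cell membrane 8 passed the filter, and of these 0 were at least 2-fold higher on the double KO array and 4 were above WT. The highest were the glycophorin gene Gypc at 0.73, the Rhesus antigen gene Rhd at 0.42 and the adducin gene Add2 at 0.23, and the lowest included the capping protein gene Tmod1 at -0.66 and the ankyrin gene Ank1 at -0.46. Adducin, ankyrin and Tmod1 are also made by neurons. Of the 8 membrane genes below the filter 4 were above WT, and 1 was at least 2-fold higher, namely Slc4a1 at 1.42. Of 15 late red cell genes past the filter 1 was at least 2-fold higher, namely Tent5c, and 12 were above WT, with a median of 0.12. Bpgm, which makes the bisphosphoglycerate of red cells, was at 0.32, and the carbonic anhydrase gene Car2, also made by oligodendrocytes, was lowest at -0.76. Of the 8 late red cell genes below the filter 6 were above WT, with 1 at least 2-fold higher (Ube2l6, a ubiquitin conjugating enzyme gene, at 1.02) and 1 at least 2-fold lower (the kinase gene Pim1, at -1.44).

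Of 10 erythroid transcription factors and receptors 6 passed the filter and all 6 were above WT, where 6030 of all 11497 genes were. Their median was 0.36 and none was at least 2-fold higher. Bcl11a, a repressor of embryonic globin genes that cortical neurons also make, was highest at 0.66, followed by Ldb1 at 0.44 and Lmo2 at 0.42. Gata1 and Klf1, the factors most particular to red cells, were below the filter. Gata1 read 79.2 on the double KO, 76.3 on the Reln KO, 76.1 on the Dab1 KO, 58.2 on the Apoer2 KO, 56.4 on the Vldlr KO and 29.3 on the WT array, and Klf1 read 39.9 on the double KO, 100.4 on the Reln KO, 84.6 on the Dab1 KO, 90.5 on the Apoer2 KO, 70.4 on the Vldlr KO and 70.9 on the WT array. The Klf1 signal was thus lowest where Alas2 was highest. The globins of other tissues were near WT on the double KO array, with neuroglobin (Ngb) at 0.29 and cytoglobin (Cygb) at 0.17.

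Among 10 genes of haem and iron handling past the filter, 1 was at least 2-fold higher, the transferrin receptor gene Tfrc, through which cells take up iron. It read 3464.7 on the double KO, 2193.2 on the Reln KO, 1734.1 on the Dab1 KO, 1547.5 on the Apoer2 KO, 2528.4 on the Vldlr KO and 1438.3 on the WT array, a log2 difference of 1.25. The double KO array was highest and the Vldlr KO array second, as for Alas2, and the Reln KO array came next. By likeness to Alas2 Tfrc ranked 458, with r = 0.781. The iron transporter gene Slc11a2 was at 0.48, the ferritin gene Fth1 at 0.14 and Ireb2 at -0.24, and the list median was -0.07.

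Markers of other blood cells were set beside these values. Of 10 measured platelet markers 6 passed the filter, with a median double KO minus WT difference of 0.09 and a range from -0.08 for Gp5 to 0.46 for Gp1bb, both of the platelet adhesion receptor. The summed signal of the 10 was 1387.5 on the double KO, 1272.8 on the Reln KO, 1450 on the Dab1 KO, 1357.5 on the Apoer2 KO, 1273 on the Vldlr KO and 1143.5 on the WT array. The neutrophil sum was 808.1 on the double KO, 869 on the Reln KO, 642.7 on the Dab1 KO, 848.6 on the Apoer2 KO, 545.9 on the Vldlr KO and 578.8 on the WT array, with 3 of 12 genes past the filter. The neutrophil granule gene Ngp was at 0.41, the receptor gene Csf3r at 0.30 and lactoferrin (Ltf) at 0.01. Of the 9 genes below the filter 8 were above WT, with S100a8 at 1.01. S100a8 was farther above WT on the Apoer2 KO array (1.51) and the Reln KO array (1.30) than on the double KO array. Of the lymphocyte and blood monocyte lists 1 gene each passed the filter, Ighm at 0.31 and Fn1 at -0.25. Below the filter, 6 of 10 lymphocyte genes were above WT, with 1 at least 2-fold lower (Cd3g at -1.01). Of 6 such monocyte genes 3 were above WT, with 1 at least 2-fold higher (Itgal at 1.48). Itgal was 1.13 to 1.62 above WT over all mutant arrays, and its WT signal of 12.6 was below background. The part of retained blood in the Alas2 and Tent5c values was not tested.

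Markers of vessels and of the brain's coverings had list medians at or below 0 on the double KO array. The 15 endothelial genes past the filter had a median of -0.06 and 7 of them were above WT, from Itm2a at -0.44 to the lipid transporter gene Mfsd2a at 0.48, with summed signals of 5774.1 to 6880.5 over the 6 arrays and 6744.9 on the double KO array. The 8 pericyte and smooth muscle genes had a median of -0.03, with the channel gene Kcnj8 highest at 0.74 and Rgs5 lowest at -1.48. The 4 choroid plexus genes past the filter had a median of -0.22, from Kcnj13 at -0.34 to Folr1 at -0.09. Of the 4 choroid plexus genes below the filter 0 were above WT and 2 were at least 2-fold lower. The 8 genes of the meninges past the filter had a median of -0.45, from Col1a1 at -1.18 to Ptgds at 0.16. None of the genes in the blood, iron or vessel lists was called in the comparison of reeler models with comparison arrays. Of all 11497 genes, 2 were called higher and 13 lower there. The cerebellar granule cell markers were the list that did differ there, with 8 of 9 called lower in the reeler models and a double KO minus WT median of -2.07. Their part in the erythroid values was not tested.

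**Figure D4:**
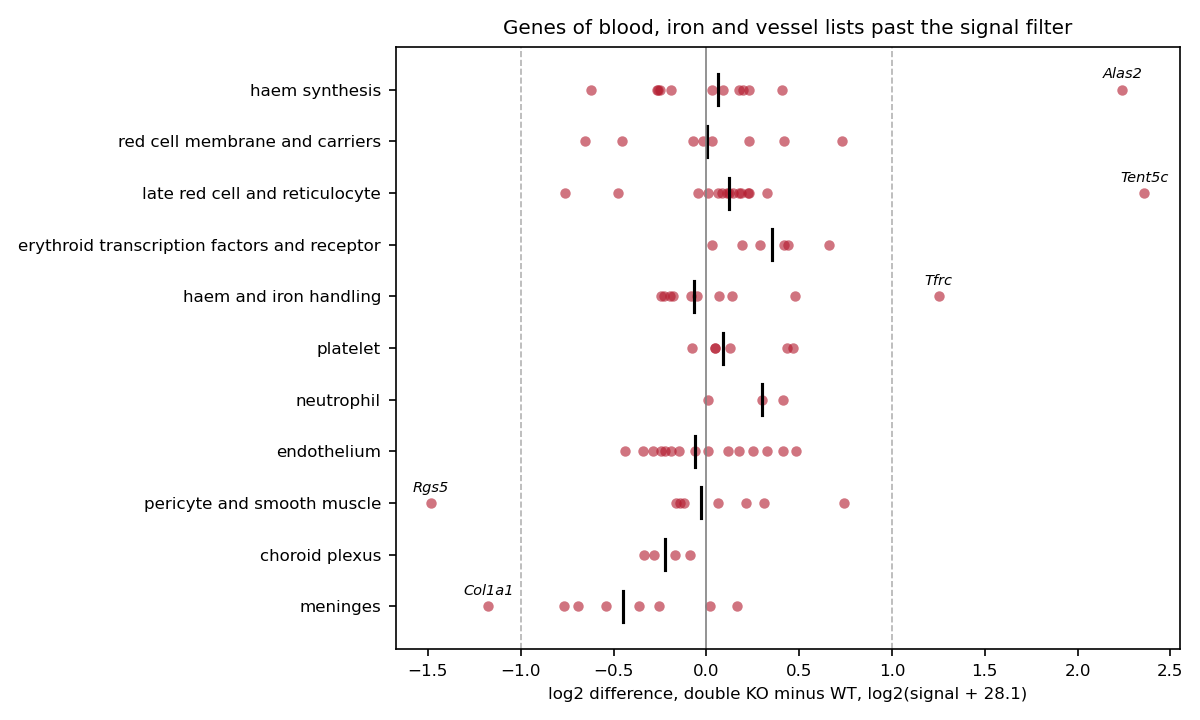
Log2 difference of double KO minus WT, on the log2(signal + 28.1) scale, for genes past the filter in each list, 1 point per gene, with the list median as a bar. No error bars are drawn because each genotype had 1 array. Alas2 at 2.24, Tent5c at 2.36 and Tfrc at 1.25 lie right of the dashed line of 2-fold higher, and Rgs5 at -1.48 and Col1a1 at -1.18 lie left of that of 2-fold lower.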

How the data were processed

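The authors deposited linear microarray signal intensities. Per the submitters' processing notes, MAS5 was run in Affymetrix Expression Console, with versions not given in the sources used here. Per the labels' protocols, RNA came from RNA-Stat60 extraction, and cRNA from the 3' IVT PLUS kit. Array means without controls, 2% trimmed at both ends, were 249.4 to 249.5, and the number of arrays limits the precision.

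From these, log2(signal + 28.1) was computed, 28.1 being the 25th percentile. The filter kept probe sets whose mean reached 89.0, their median (22517 of 45101, without 64 Affymetrix controls). Platform annotation named 1 gene for 34958 probe sets, several for 932 and none for 9211. Reeler models were compared with comparison arrays in R 4.3.3 with limma 3.58.1, its prior trended and p-values Benjamini-Hochberg adjusted, after being tested on simulated data. Correlations used exact permutation of 6 arrays in Python 3.11.15 with scipy 1.17.1. The 250 bases before start sites are RefSeq's, GRCm38.p6, found for 6 of 7 genes sought.

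Members, lists and tests were chosen with earlier results of these data known. The text names all members, the targeted and sex genes, Gh, genes from among the 3 highest and 3 lowest of each blood, iron or vessel list by double KO minus WT, though not every one, and the 5 genes most like Alas2 and alpha globin. Each gene of a list took its brightest probe set, _x_at last. Alas1, Gata1, Klf1, S100a8, Ube2l6, Pim1, Cd3g, Itgal and the places of Tfrc and Tent5c in the likeness lists were named after their values were seen. Alternatives were pseudocounts of 1 and 89.4, no filter, a filter at 297.5, quantile normalization, 1 probe set per gene, no trend, a cross covariate, other comparison arrays, other choices of globin probe sets and leaving out arrays.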

Additional observations from a re-analysis of the deposited data

How the results depend on the processing

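With 1 array per genotype, each value against WT rests on 2 arrays. Signals near or below the bacterial controls (28.4 to 39.6) are bounds more than levels. That covers the second Tent5c probe set, the third Slc4a1 probe set and the embryonic globins. It also covers the lowest arrays of Slc4a1 1416464_at and 1434502_x_at, which were above the controls on 5 and 4 arrays. No paired analysis was possible because each genotype had 1 array and the groups share no pairs. The count of probe sets called between reeler models and comparison arrays was 27, against 15 with 1 probe set per gene and 14 with the cross as a covariate, and it was 2 to 32 with 1 array left out, being 2 without the Apoer2 KO array and 2 without the WT array. No member was called in any of these settings. The count of probe sets at least 2-fold above WT was 86 on the double KO array, and it was 159 with a pseudocount of 1, 29 with one of 89.4, 492 without a filter, 26 with a filter at 297.5, 34 when set against all comparison arrays and 18 against the other 5 arrays. On the Reln KO array it was 248, and 134 with a pseudocount of 89.4, 702 without a filter and 101 with the higher filter. On the Dab1 KO array it was 86, and 154 and 35 with pseudocounts of 1 and 89.4, 496 without a filter, 29 with the higher filter and 56 when set against all comparison arrays. On the Apoer2 KO array it was 55, and 100 and 23 with those pseudocounts, 350 without a filter and 20 with the higher filter. On the Vldlr KO array it was 75, and 131 and 33 with those pseudocounts, 325 without a filter and 16 with the higher filter. The filter changes how many probe sets are counted, and the pseudocount how far dim ones can move. The excess of the double KO over both single KOs at beta globin 1417184_s_at was 0.046, and -0.20 under quantile normalization. With a single globin probe set r was higher for Alas2 (0.864 with alpha and 0.893 with beta globin) and Tent5c (0.897 and 0.919), while the rho with alpha globin was 0.771 for both, as with all 6 probe sets. The r of Slc4a1 was -0.094 with alpha globin alone and without the double KO and WT arrays. The difference of reeler models minus comparison arrays changed sign for 6 members, none called. With 1 array left out it ran from -0.070 (without the double KO) to 0.18 (without the Reln KO) for 1417184_s_at, being -0.0026 without the WT array, and it was -0.033 under quantile normalization. For 1428361_x_at it ran from -0.033 (without the double KO) to 0.23, and for 1427865_at from -0.39 to 0.052 (without the Reln KO). For 1427866_x_at it ran from -0.67 to 0.11, being positive without the Reln KO (0.067) or the Vldlr KO array (0.11), and it was 0.36 with the cross covariate. For Tent5c it ran from -0.73 (without the double KO) to 0.75, being -0.24 without the WT array, and it was -0.053 with a pseudocount of 1. For Alas2 it ran from -0.57 (without the double KO) to 0.69, being -0.13 without the WT array. Where no construction shows it, the cause was not tested. The double KO difference was 1.64 to 2.42 for Alas2 and 1.71 to 2.87 for Tent5c over the settings run. The lowest value of each was against the mean of all comparison arrays in place of WT. Both genes were chosen for a high double KO signal, so nothing is read from the steady sign. For 1417184_s_at the difference was 0.34 to 0.56, lowest under quantile normalization.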

Other observations

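The other probe sets of Tfrc gave the same order of the highest arrays as the one in the list. The probe set 1422966_a_at read 1924 on the double KO, 1104.5 on the Reln KO, 831.6 on the Dab1 KO, 696.6 on the Apoer2 KO, 1159.7 on the Vldlr KO and 516.3 on the WT array, a log2 difference of double KO minus WT of 1.84. The probe set 1422967_a_at read 363 on the double KO, 264.1 on the Reln KO, 194.7 on the Dab1 KO, 138.8 on the Apoer2 KO, 287.4 on the Vldlr KO and 93.5 on the WT array, a difference of 1.69. In the class comparison by limma the 3 Tfrc probe sets differed by 0.40, 0.67 and 0.66, with adjusted p-values of 0.598, 0.498 and 0.506.

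The pericyte gene Rgs5 went the other way from Alas2 on the double KO array. Its brightest probe set, 1417466_at, read 704.7 on the double KO, 886.2 on the Reln KO, 1585.9 on the Dab1 KO, 1579.4 on the Apoer2 KO, 1536.9 on the Vldlr KO and 2019.2 on the WT array, a log2 difference of -1.48. The 3 other Rgs5 probe sets gave differences of -1.54, -1.47 and -1.99 and were also lowest on the double KO and highest on the WT array. The class differences of all 4 ran from -0.84 to -0.75 with limma adjusted p-values of 0.279 to 0.458. The collagen gene Col1a1 had a difference of -1.18 at 1423669_at and -0.10 at 1455494_at, so its probe sets disagree.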
